A study of Mus musculus with 19 samples.

Results

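The genes described here are 9 members of the S100 family of calcium-binding proteins, chosen by name from the rows of a gene count table that lists 50854 genes: S100a8, S100a9, S100a1, S100a4, S100a6, S100a10, S100a11, S100a13 and S100a16. Of the 9, 8 had enough reads to be tested, and S100a16 had 0 reads in every library. The libraries are bulk RNA-seq of cells sorted as bone marrow monocytes from REP mice, a strain that reports CCR1, CCR2 and other chemokine receptors by fluorescence, and the question asked of them was how monocytes that carry both receptors (CCR1/2+ve) differ from those that carry CCR2 alone (CCR2+ve), at rest and in inflammation. The mice of all groups were female and 8 to 12 weeks old. There were 4 libraries of resting CCR1/2+ve cells, 4 of resting CCR2+ve cells, 3 of inflamed CCR1/2+ve cells, 4 of inflamed CCR2+ve cells and 4 labelled inflamed CCR1, a group that the study's own text does not describe. Inflamed mice had carried osmotic pumps that released IL-3, IL-6, GM-CSF and IFN-α for a week. The labels call the other mice resting and do not say whether these carried pumps with vehicle. The study's gate for these monocytes was CD11b+ Ly6C high Ly6G- SiglecF-, and the reporters, not the endogenous receptor proteins, defined the populations.

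S100 proteins are small proteins with a pair of EF-hands, the helix-loop-helix motifs that bind calcium, and most act as dimers that change shape with calcium and then bind other proteins. S100A8 and S100A9 form the heterodimer calprotectin, which makes up much of the cytosolic protein of neutrophils, is also made by monocytes, withholds zinc and manganese from microbes and, once released, acts on TLR4 and RAGE. S100A10 binds annexin A2, S100A11 binds annexin A1, S100A6 binds the calcyclin-binding protein, S100A4 binds non-muscle myosin, S100A13 takes part in the release of IL-1α and FGF1 without a signal peptide, and S100A1 is best known from muscle.

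Reads on genes ranged from 22268658 to 30502009 per library, with a median of 23706580. Levels are given as CPM, the read count relative to the TMM-scaled size of the library, over all 19 libraries. The monocyte label was checked against 12 monocyte genes, and in the 4 groups other than inflamed CCR1 all 12 reached 10 CPM, with a summed level of 32718 to 62304 CPM. The 4 libraries labelled inflamed CCR1 stood apart and went against the monocyte label. In these, 8 of the 12 genes reached 10 CPM and the sum was 7854 to 12480 CPM. Mean levels were 17.7 CPM for the CSF-1 receptor gene Csf1r, 5.82 CPM for Ccr2, 3.52 CPM for Fn1 and 2.39 CPM for Cx3cr1. Not all genes of the list were this low. Itgam and Ly6c2, which encode the CD11b and Ly6C of the gate, were nearer the other groups, at 91.8 and 1421 CPM. Their means elsewhere were 92.2 to 132 CPM and 1856 to 2645 CPM. Lyz2 was at 8278 CPM, against means of 27585 to 36400 CPM. The early granule genes Mpo, Elane, Prtn3, Ms4a3 and Fcnb summed to 55123 to 61855 CPM there, against 351 to 6794 CPM in the other groups, and the mature neutrophil list of 15 genes (14 in the table) summed to 99482 to 145437 CPM against 1200 to 3807 CPM. Most of that sum was Ngp, Camp, Ltf and Cd177 (means of 86036, 19966, 8523 and 5509.9 CPM). Retnlg, Ly6g, Mmp9 and Stfa2l1 were at 22.8, 14.4, 4.72 and 0.34 CPM. Their highest means in another group were 5.26, 1.08, 2.68 and 0.13 CPM, all in inflamed CCR1/2+ve libraries. Mmp8 went the other way, at 9.10 CPM against means of 451 to 1606 CPM in the other groups. The cells are therefore called by their label throughout, and no inflamed CCR1 library entered a main fit that compares the other groups. These libraries did enter the alternative with all 19 libraries in one fit, the filter on low counts and the scaling of CPM. Among the remaining lists, outside the inflamed CCR1 group, the summed level was 0.831 to 5.06 CPM for eosinophil genes, 0 to 237 CPM for basophil and mast cell genes, 159.5 to 4537 CPM for dendritic cell genes, 18.0 to 40.2 CPM for B cell genes, 2.98 to 80.6 CPM for T and NK cell genes, 2.15 to 279.9 CPM for erythroid genes and 194 to 648 CPM for tissue macrophage genes. In the inflamed CCR1 libraries the same lists reached at most 87.4, 298, 22.9, 41.9, 1707, 23.4 and 532 CPM, and Nkg7 alone, with a mean of 1562 CPM, made up most of the T and NK cell sum.

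**Figure D1:**
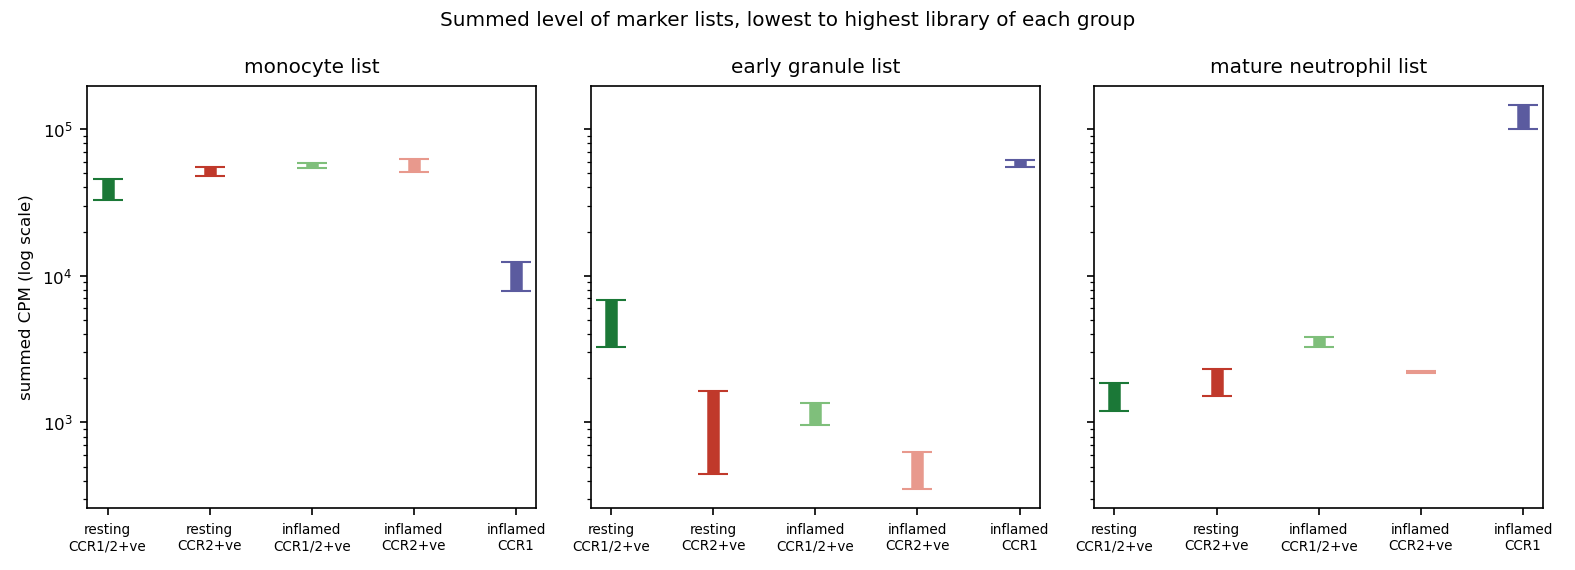
Summed level of 3 marker lists in CPM on a log axis, with each bar running from the lowest to the highest library of a group. Early granule genes summed to 3291 to 6794 CPM in resting CCR1/2+ve libraries against 445 to 1643 CPM in resting CCR2+ve libraries, and the inflamed CCR1 libraries stood above all others on the early granule and neutrophil lists and below them on the monocyte list.

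All 9 genes lie on chromosome 3 (GRCm38) in a pair of runs. The first run spans positions 90511034 to 90695721 and holds 7 of the members: S100a1 (minus strand), S100a13, S100a16, S100a4, S100a6 and S100a8 (plus strand) and S100a9 (minus strand, positions 90692632 to 90695721). S100a8 lies at 90668978 to 90670035, so S100a8 and S100a9 are neighbours that point towards each other. The second run, from 93520488 to 93564643, holds S100a11 and S100a10. Of the 16 genes annotated in the first run, the 9 that are not members had between 0 and 38 reads each over all 19 libraries, against 997355 for S100a8. S100a1 and S100a13 stand head to head, and RefSeq's promoter windows of this pair, 250 bases before to 50 after the start, share 204 bases.

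S100a8 and S100a9 had the largest differences between the populations, so their promoter windows from RefSeq (GRCm38.p6) are shown beside that of S100a6, a gene of the same run whose level differed little among the 4 groups other than inflamed CCR1. Each is written 5′ to 3′ on the strand of the gene, and capitals mark every match to 5 motifs searched on both strands. The motif of PU.1 was written GAGGAA, that of C/EBP factors TTGCNNAA, that of STAT factors TTCNNNGAA and that of IRF factors GAAANNGAA. The last motif was the TATA box, written TATAAA. The windows are chr3:90668821-90669120 on the plus strand for S100a8, chr3:90695672-90695971 on the minus strand for S100a9 and chr3:90612644-90612943 on the plus strand for S100a6.
S100a8: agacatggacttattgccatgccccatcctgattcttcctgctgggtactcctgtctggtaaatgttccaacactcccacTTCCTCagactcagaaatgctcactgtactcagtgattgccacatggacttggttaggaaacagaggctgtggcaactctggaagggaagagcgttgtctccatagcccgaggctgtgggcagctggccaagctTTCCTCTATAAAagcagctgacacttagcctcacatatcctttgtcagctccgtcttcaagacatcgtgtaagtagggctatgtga
S100a9: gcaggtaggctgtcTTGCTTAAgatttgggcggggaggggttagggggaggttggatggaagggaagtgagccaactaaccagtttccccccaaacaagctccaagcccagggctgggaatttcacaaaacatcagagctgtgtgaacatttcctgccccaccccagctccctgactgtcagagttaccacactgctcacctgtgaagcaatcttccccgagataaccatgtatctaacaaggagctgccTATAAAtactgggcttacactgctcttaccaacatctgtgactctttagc
S100a6: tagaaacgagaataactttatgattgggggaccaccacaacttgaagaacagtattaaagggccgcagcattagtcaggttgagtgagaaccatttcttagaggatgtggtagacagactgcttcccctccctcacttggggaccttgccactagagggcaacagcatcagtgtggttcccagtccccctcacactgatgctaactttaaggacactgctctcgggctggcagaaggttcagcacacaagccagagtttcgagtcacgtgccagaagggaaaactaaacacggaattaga

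The S100a8 window held the PU.1 letters on the opposite strand at -170 to -165 and at -36 to -31, counted from RefSeq's start, and the TATA letters at -30 to -25, right beside the second of these and not overlapping it. The S100a9 window held the C/EBP letters at -236 to -229 and the TATA letters at 1 to 6, and the S100a6 window held no match. Of 32841 promoter windows of this length, 10.8% held the C/EBP letters, 28.3% the PU.1 letters, 8.3% the STAT letters, 8.56% the IRF letters and 13.6% the TATA letters. Among 9 windows found for 8 of the members, these motifs matched in 1, 4, 0, 2 and 3 windows. Which factors bind there was not measured in these libraries.

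Between genes, levels were compared as CPM per kb of exon. In resting CCR1/2+ve cells S100a8 stood at 2550.0 ± 281 CPM per kb (SD, n = 4), rank 8 of the 18652 genes tested, followed among the members by S100a9 at 623 ± 94.9, S100a11 at 495 ± 104, S100a6 at 442 ± 63.9, S100a10 at 296 ± 44.5, S100a13 at 169.6 ± 13.8, S100a1 at 98.3 ± 3.86 and S100a4 at 9.82 ± 1.53 CPM per kb. In resting CCR2+ve cells the order on this scale was led by S100a6 at 525 ± 21.2 and S100a11 at 447 ± 62.9 CPM per kb, with S100a8 at 225 ± 83.3 and S100a9 at 38.7 ± 8.25 CPM per kb. Thus S100a9 was above S100a6 per kb in resting CCR1/2+ve cells and below it in resting CCR2+ve cells. This switch rests on the annotated exon lengths, 522 bases for S100a9 and 1367 for S100a6. By CPM, S100a6 was above S100a9 in resting CCR1/2+ve cells (604 against 325 CPM) and in resting CCR2+ve cells (717 against 20.2 CPM). The count of S100a4 is uncertain, because 51.7% of its exonic bases are shared with the annotated gene Gm42674 on the same strand. Gm42674 had 0 reads, and reads in a stretch that belongs to 2 genes are usually given to neither.

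**Figure D2:**
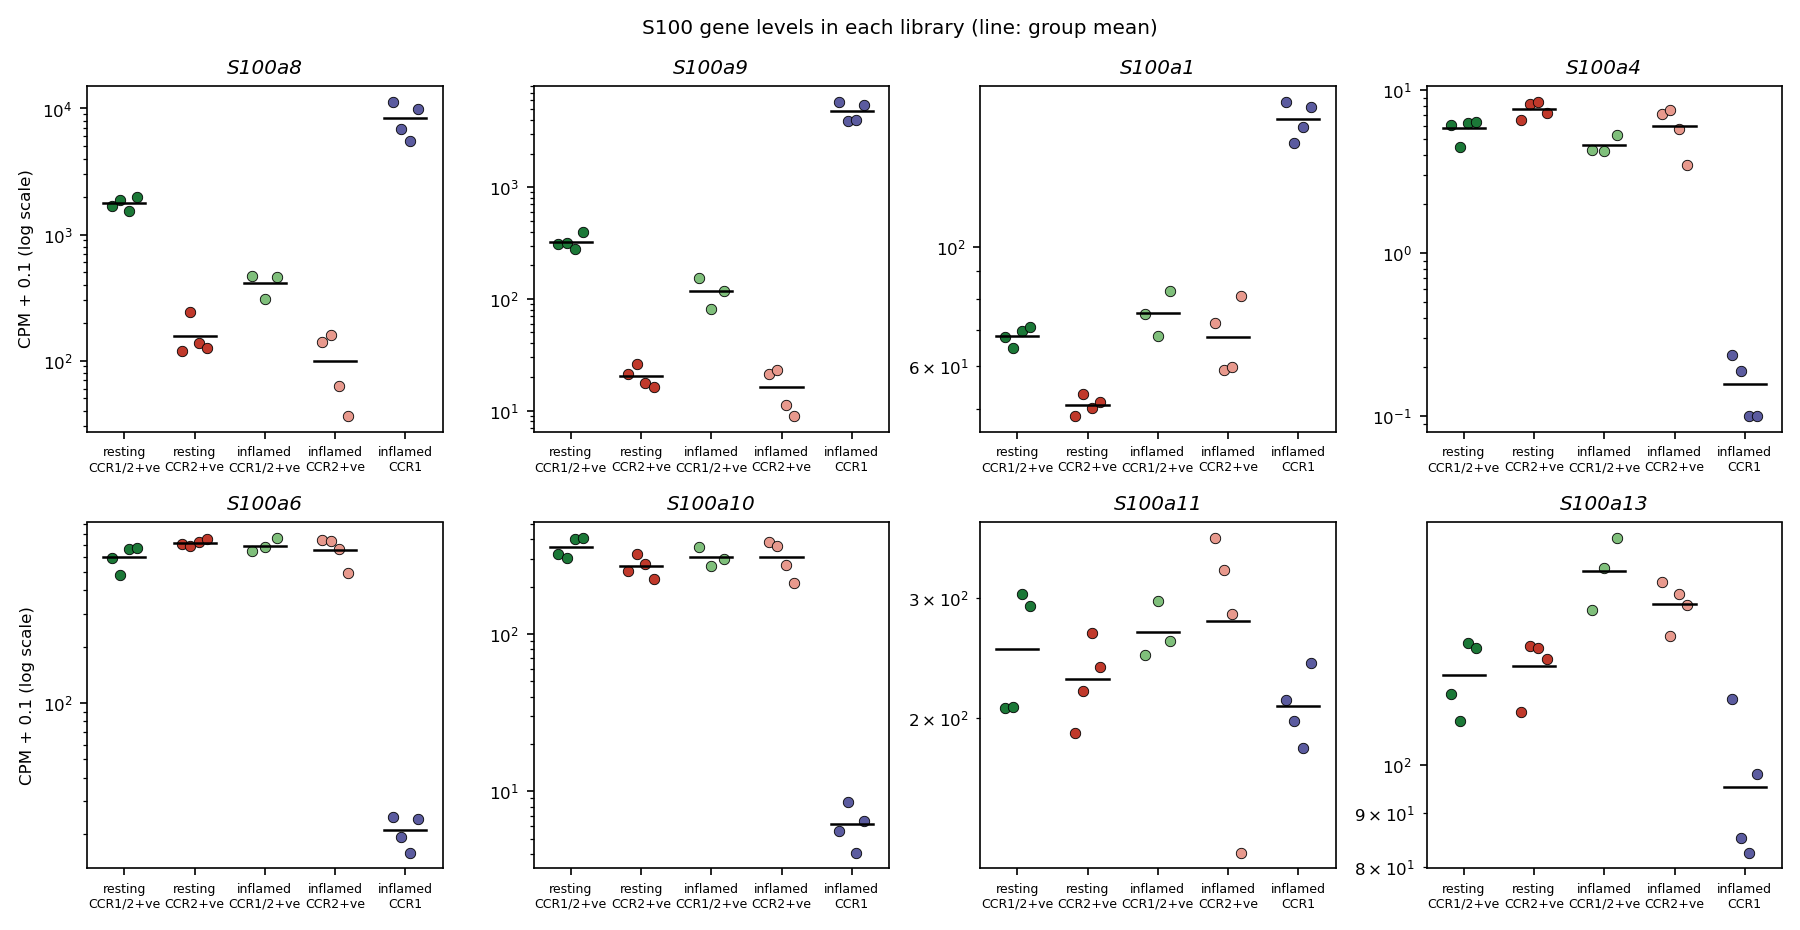
Level of each S100 gene in each library, as CPM plus 0.1 on a log axis with its own range in each panel, with points for libraries and a line for the mean of a group. S100a8 and S100a9 ran from 36.1 and 8.82 CPM in inflamed CCR2+ve libraries to 11316 and 5822 CPM in inflamed CCR1 libraries, while S100a6 and S100a10 stayed within narrow ranges except in the inflamed CCR1 group, where they were low.

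The first comparison asked how the resting populations differ. S100a8 was at 1681, 1866, 1546 and 1987 CPM in the resting CCR1/2+ve libraries and at 118, 242, 139 and 126 CPM in the resting CCR2+ve libraries. Every CCR1/2+ve library was above every CCR2+ve library, and replicate 2 was the highest of the CCR2+ve libraries. S100a8 was 11.9-fold higher in CCR1/2+ve cells (log2 fold change 3.57, SE 0.23, edgeR adjusted p = 1.58e-05). S100a9 was at 311, 318, 277 and 395 CPM in CCR1/2+ve libraries against 21.02, 25.9, 17.7 and 16.2 CPM in CCR2+ve libraries. Its groups did not overlap either, and it was 16.9-fold higher in CCR1/2+ve cells (log2 fold change 4.08, SE 0.16, edgeR adjusted p = 9.02e-08). For both genes the exact two-sided permutation test gave p = 0.0286, the smallest that 4 libraries against 4 can give. That test took the libraries as unpaired, though resting libraries with the same replicate number deviated together. In bulk RNA, a larger share of cells that carry a transcript and more transcript per cell cannot be told apart. The study also sequenced single cells sorted for both receptors. It reports S100a9 in cells that were copying DNA or near division, and not in cells of the phase before DNA copying. The part of cell cycle phase in the difference between the populations was not tested here. Early granule genes moved in the same direction as S100a8 and S100a9, at 3291 to 6794 CPM in CCR1/2+ve libraries against 445 to 1643 CPM in CCR2+ve libraries. The CCR2+ve library with the most S100a8, replicate 2, also had the highest early granule sum of its group. In the CCR1/2+ve group this did not hold. There replicate 4 had the most S100a8 (1987 CPM) and S100a9 (395 CPM) and the lowest early granule sum (3291 CPM). The mature neutrophil list summed to 1200 to 1856 CPM against 1504 to 2327 CPM, a sum made mostly of Cd177 (633 against 874 CPM) and Mmp8 (451 against 548 CPM). Other genes of that list had higher means in CCR1/2+ve libraries, among them Lcn2 (94.9 against 21.3 CPM), Camp (16.2 against 9.31 CPM), Cxcr2 (1.93 against 0.51 CPM) and Mmp9 (2.11 against 0.08 CPM). Mmp9 had at most 3 reads in a CCR2+ve library. Lower means were also found for Csf3r (170 against 222 CPM), Padi4 (145 against 159 CPM) and Ngp (26.1 against 27.3 CPM). The same held for Ltf (3.21 against 6.69 CPM) and Retnlg (0.07 against 0.22 CPM). The monocyte list was at 32718 to 45791 CPM against 48180.1 to 55276 CPM and the dendritic cell list at 159.5 to 419 CPM against 814 to 2289 CPM, both sums without overlap. The monocyte sum was mostly Lyz2 (27585 against 36342 CPM). Within that list Irf8 had a higher mean in CCR1/2+ve libraries (513 against 485 CPM). Ly6c2 (2530 against 2645 CPM) and Klf4 (112 against 118 CPM) differed little. Ly6g, the gene of the antigen in the gate, was at 0.49 and 0.45 CPM. The part of these lists in the S100a8 and S100a9 difference was not tested. Without the CCR2+ve replicate 2 the log2 fold change was 3.88 for S100a8 and 4.23 for S100a9.

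S100a1 was at 67.7, 64.6, 69.7 and 70.7 CPM in the resting CCR1/2+ve libraries and at 48.3, 53.1, 50.0 and 51.3 CPM in the resting CCR2+ve libraries. These groups were narrow and did not overlap, and S100a1 was 1.42-fold higher in CCR1/2+ve cells (log2 fold change 0.50, SE 0.07, edgeR adjusted p = 0.000404). S100a10, the partner of annexin A2, was at 322, 303, 404 and 406 CPM against 253, 324, 276 and 224 CPM. Here the groups overlapped, through the CCR2+ve replicate 2, and the gene passed the test at 1.40-fold (log2 fold change 0.48, SE 0.12, edgeR adjusted p = 0.0162). With all 19 libraries in one fit S100a10 did not pass (0.41, edgeR adjusted p = 0.159). In all, 4 of the 8 members tested were higher and 0 lower at an adjusted p under 0.05, where 8.44% of all genes tested were higher and 8.44% lower. With the study's further cutoff of a 2-fold change, S100a8 and S100a9 remained, and 2.34% of all genes were higher by both cutoffs. The groups did not overlap for 5 of the 8, where 20.2% of all genes did not overlap.

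The other 4 members had small differences in the resting populations. S100a6 had a log2 fold change of -0.17 (SE 0.09, edgeR adjusted p = 0.228), with 485 to 674 CPM in CCR1/2+ve and 686 to 755 CPM in CCR2+ve libraries, so the groups did not overlap. S100a4, at 4.40 to 6.29 CPM against 6.47 to 8.40 CPM and likewise without overlap, had a log2 fold change of -0.32 (SE 0.16, edgeR adjusted p = 0.215). The values were 0.22 for S100a11 (SE 0.13, edgeR adjusted p = 0.285) and 0.04 for S100a13 (SE 0.07, edgeR adjusted p = 0.757). The libraries of the resting groups with the same replicate number deviated together, and with the replicate number as a block S100a6 fell by 0.18 on the log2 scale (edgeR adjusted p = 0.0283) and S100a11 rose by 0.21 (edgeR adjusted p = 0.0145) in CCR1/2+ve cells.

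**Figure D3:**
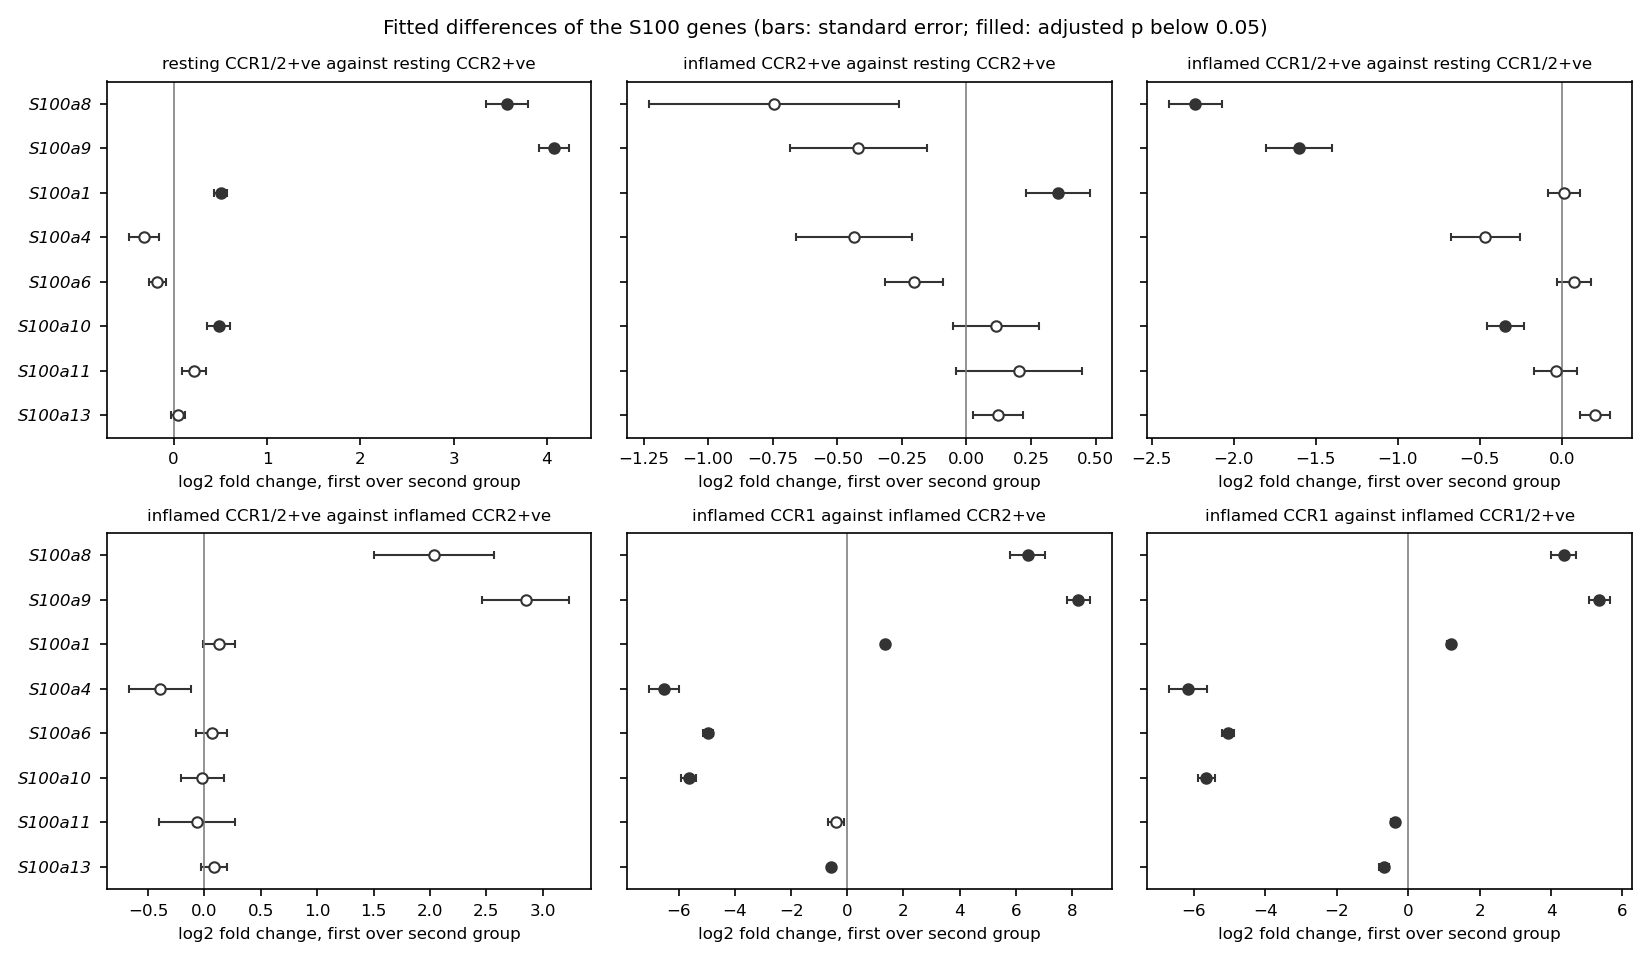
Log2 fold change of the 8 members tested in each of 6 comparisons, the first group named over the second, with bars for the standard error, filled points for an adjusted p under 0.05 and an axis of its own for each panel. S100a8 and S100a9 had positive values in resting CCR1/2+ve against CCR2+ve cells and negative values in inflamed against resting CCR1/2+ve cells, and the comparisons with inflamed CCR1 split the family into genes that were higher and genes that were lower.

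The next comparisons set inflamed against resting cells of each population. Whether resting mice carried pumps is not in the labels, so effects of the pump and of its cytokines cannot be told apart. The same holds for any difference in collection or library batch. Here and below, rose and fell mean higher and lower in inflamed than in resting libraries. In inflamed CCR1/2+ve cells S100a8 was at 466, 308 and 462 CPM, all below the 1546 to 1987 CPM of the resting CCR1/2+ve libraries. It was 4.70-fold lower in the inflamed cells (log2 fold change -2.23, SE 0.16, edgeR adjusted p = 7.84e-07). S100a9 was at 154, 81.2 and 118 CPM, again below every resting library, and was 3.04-fold lower (log2 fold change -1.60, SE 0.20, edgeR adjusted p = 0.000121). The exact permutation test gave 0.0571 for each, the smallest p that 3 libraries against 4 allow. The neutrophil granule genes Ngp, Ltf and Camp rose in the same comparison (log2 fold change 3.51, 4.21 and 1.48), while the early granule sum was 3291 to 6794 CPM in resting and 955 to 1367 CPM in inflamed CCR1/2+ve libraries. The part of these lists in the change was not tested. S100a10 passed the test at a lower level (log2 fold change -0.34, SE 0.11, edgeR adjusted p = 0.0255), with overlapping groups, and lost the call without any 1 of 5 libraries (resting replicates 1, 3 and 4, inflamed replicates 3 and 4; adjusted p up to 0.125). The call was also lost with DESeq2 (-0.27, adjusted p = 0.158), RLE scaling (edgeR adjusted p = 0.138), all 19 libraries in one fit (-0.22, edgeR adjusted p = 0.398) and length correction (-0.08, edgeR adjusted p = 0.659). The 3 members that fell stand against 25.4% of all genes that were lower, and the 0 that rose against 20.6% that were higher. The groups did not overlap for 3 of the 8 members, S100a8, S100a9 and S100a13, where 50.1% of all genes did not.

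S100a13, which takes part in unconventional secretion, was at 139.9, 153 and 163 CPM in inflamed CCR1/2+ve cells against 116, 109.8, 130.1 and 129 CPM in resting ones, with no overlap (log2 fold change 0.20, SE 0.09, edgeR adjusted p = 0.0963). Without the inflamed replicate 2 its edgeR adjusted p was 0.0265. S100a13 also passed with length correction (0.52, edgeR adjusted p = 0.00136) and with all 19 libraries in one fit (0.33, edgeR adjusted p = 0.0181). Among genes of at least 10 CPM, those in the exon length range of the tested members had a median log2 fold change of -0.10, against 0.11 for all. S100a4 had a log2 fold change of -0.47 (edgeR adjusted p = 0.0913), and S100a1, S100a6 and S100a11 of 0.01, 0.07 and -0.04 (edgeR adjusted p between 0.603 and 0.933). With length correction S100a1 (0.34, edgeR adjusted p = 0.0163) and S100a6 (0.32, edgeR adjusted p = 0.0473) passed as well.

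In CCR2+ve cells S100a8 was at 140, 159, 62.8 and 36.1 CPM when inflamed and S100a9 at 21.2, 23.2, 11.03 and 8.82 CPM. These ranges overlapped those of the resting CCR2+ve libraries, and neither difference passed the test (S100a8 log2 fold change -0.75, SE 0.48, edgeR adjusted p = 0.252, and S100a9 -0.42, SE 0.27, edgeR adjusted p = 0.216). S100a1 was at 72.1, 58.9, 59.6 and 81.0 CPM, above every resting CCR2+ve library, and was the single member past the test (1.28-fold higher, log2 fold change 0.35, SE 0.12, edgeR adjusted p = 0.0286). Its adjusted p was 0.0666 without the inflamed CCR2+ve replicate 1 and 0.0786 without replicate 4. Thus 1 of 8 members was higher and 0 were lower, where 21.9% of all genes were higher and 25.9% lower, and 2 of 8, S100a1 and S100a13, had groups that did not overlap, where 45.7% of all genes had. The inflamed CCR2+ve replicate 4 was the lowest of its group in S100a8, S100a9, S100a4, S100a6, S100a10 and S100a11. S100a11 was at 127 CPM in it against 285 to 368 CPM in the other 3, and without it S100a11 was higher in inflamed CCR2+ve cells (log2 fold change 0.44, edgeR adjusted p = 0.00691) where all 4 gave 0.20 (SE 0.25, edgeR adjusted p = 0.534). S100a4, S100a6, S100a10 and S100a13 had log2 fold changes of -0.43, -0.20, 0.11 and 0.12, all with an adjusted p over 0.05. S100a13 passed with length correction (0.34, edgeR adjusted p = 0.0302) and S100a6 with GC correction (-0.30, edgeR adjusted p = 0.0401).

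Between the inflamed populations, the 3 CCR1/2+ve libraries, at 308 to 466 CPM of S100a8 and 81.2 to 154 CPM of S100a9, again lay above all 4 CCR2+ve libraries. Neither gene passed the test over all genes: S100a9 had a log2 fold change of 2.85 (SE 0.39, edgeR adjusted p = 0.0578) and S100a8 of 2.04 (SE 0.53, edgeR adjusted p = 0.339). Of the 8 members 0 were called by edgeR, with 2 at an unadjusted p under 0.05, where 0.188% of all genes were called in either direction, while DESeq2 called both genes (adjusted p = 3.14e-14 for S100a9 and 0.0095 for S100a8) among 138 higher and 120 lower genes in all. The groups did not overlap for 2 of 8 members, where 9.71% of all genes did not overlap. The other 6 members had log2 fold changes from -0.40 for S100a4 to 0.13 for S100a1. Early granule genes were at 955 to 1367 CPM in CCR1/2+ve and 351 to 629 CPM in CCR2+ve libraries, and mature neutrophil genes at 3250 to 3807 CPM and 2158 to 2256 CPM.

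Whether the difference between the populations itself changed with inflammation was tested as an interaction in 1 fit of these 15 libraries. The estimate was -1.53 for S100a8 (SE 0.55, edgeR adjusted p = 0.26) and -1.22 for S100a9 (SE 0.40, edgeR adjusted p = 0.202), so that the fitted gap was smaller in inflamed cells without passing the test. S100a8, S100a9, S100a1 (-0.38) and S100a10 (-0.50) were at an unadjusted p under 0.05 and not past the adjusted one. Of the 8 members 0 were called by edgeR and 1, S100a9, by DESeq2 (adjusted p = 0.0431). Over all genes edgeR called 0.397%, 45 higher and 29 lower, and DESeq2 379 higher and 166 lower.

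The ratio of S100a9 to S100a8, in reads per exonic base, shows whether the subunits of calprotectin moved in step. Its lowest, median and highest values were 0.227, 0.242 and 0.264 in resting CCR1/2+ve, 0.142, 0.17 and 0.237 in resting CCR2+ve, 0.338, 0.350 and 0.438 in inflamed CCR1/2+ve, 0.194, 0.218 and 0.324 in inflamed CCR2+ve and 0.684, 0.745 and 0.952 in inflamed CCR1 libraries. S100a8 was thus the more abundant transcript per base in all 19 libraries. The 3 inflamed CCR1/2+ve libraries lay above all resting CCR1/2+ve libraries, which is the same data as the larger fall of S100a8, and the inflamed CCR1 libraries lay above all others. The pair made up 0.195 to 0.277% of reads in resting CCR1/2+ve, 0.0140 to 0.0301% in resting CCR2+ve, 0.0350 to 0.0569% in inflamed CCR1/2+ve, 0.00444 to 0.0174% in inflamed CCR2+ve and 0.865 to 1.64% in inflamed CCR1 libraries.

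**Figure D4:**
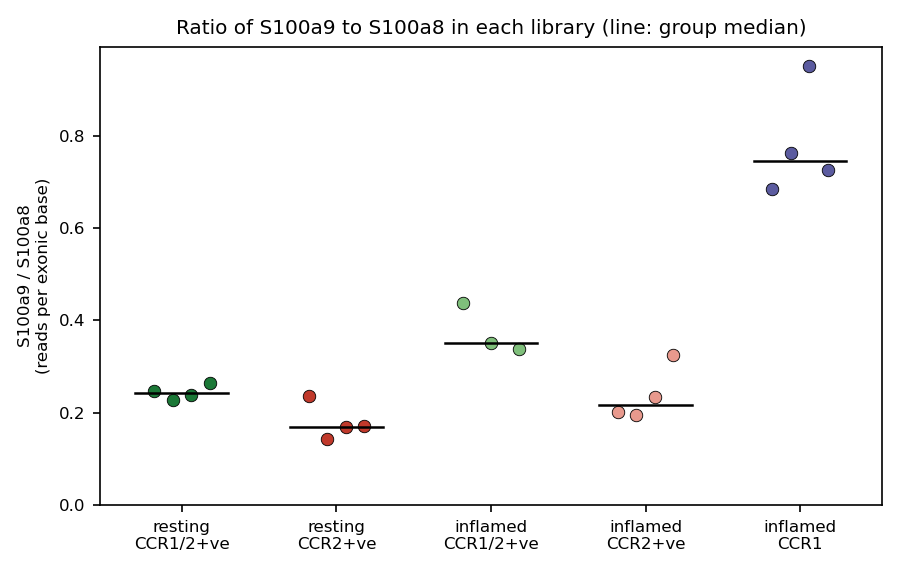
Ratio of S100a9 to S100a8 in reads per exonic base, with points for libraries and a line for the median of a group. The medians run from 0.17 in resting CCR2+ve to 0.745 in inflamed CCR1 libraries, and every library is below 1.

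In the libraries labelled inflamed CCR1 the family split. S100a8 was at 11316, 6868, 5524 and 9878 CPM and S100a9 at 5822, 3945, 3955 and 5390 CPM, ranks 10 and 15 of all genes by mean CPM. Against inflamed CCR2+ve cells S100a8 was 85.7-fold higher (log2 fold change 6.42, SE 0.63, edgeR adjusted p = 0.000127) and S100a9 300.4-fold higher (log2 fold change 8.23, SE 0.40, edgeR adjusted p = 1.51e-07). S100a1 was at 186, 156, 167 and 182 CPM, above every library of the other groups, and was 2.55-fold higher (log2 fold change 1.35, SE 0.13, edgeR adjusted p = 9.55e-08).

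In the other direction, S100a6 was at 24.6, 19.1, 15.8 and 24.1 CPM, where no library of another group was below 485 CPM. It was 31.2-fold lower than in inflamed CCR2+ve cells (log2 fold change -4.96, SE 0.18, edgeR adjusted p = 1.12e-12). S100a10 was at 5.46, 8.41, 3.97 and 6.41 CPM, against 211 CPM or more in all other libraries, and was 50.3-fold lower (log2 fold change -5.65, SE 0.26, edgeR adjusted p = 2.13e-09). S100a4 had 3, 2, 0 and 0 reads, at or under the floor of 3 reads per library, and was at least 45.5-fold lower than in inflamed CCR2+ve cells. S100a13 was at 82.5 to 115 CPM and lower by 0.57 on the log2 scale (SE 0.12, edgeR adjusted p = 0.000873), while S100a11, at 181 to 241 CPM, stayed near the other groups (log2 fold change -0.40, SE 0.28, edgeR adjusted p = 0.27). Without the inflamed CCR2+ve replicate 4 that value was -0.64 and past the test (edgeR adjusted p = 0.000266). Of the 8 members 3 were higher and 4 lower, where 22.7% of all genes were higher and 25.4% lower, and for 7 of 8 the groups did not overlap, where 45.3% of all genes did not.

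Against inflamed CCR1/2+ve cells the same directions held. S100a8 was 20.5-fold, S100a9 40.9-fold and S100a1 2.29-fold higher, S100a6 33.1-fold, S100a10 50.6-fold, S100a13 1.60-fold and S100a11 1.29-fold lower, and S100a4 at least 34.9-fold lower. Of the 8 members 3 were higher and 5 lower, where 20.2% of all genes were higher and 23.0% lower, and the groups did not overlap for any of the 8, where 47.4% of all genes did not. The call of S100a11 (log2 fold change -0.37, SE 0.12, edgeR adjusted p = 0.0226) was lost without any 1 of 4 libraries (inflamed CCR1/2+ve replicate 3, inflamed CCR1 replicates 1, 2 and 3; adjusted p up to 0.132). It was also lost with the replicate block (edgeR adjusted p = 0.0554), alone or with length or GC correction, with GC correction alone (0.0569) and with all 19 libraries in one fit (0.241). Both comparisons share the inflamed CCR1 libraries. The neutrophil and early granule lists given above moved with S100a8 and S100a9, the monocyte list with S100a6 and S100a10, and their part in these differences was not tested.

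Ordered by mean level over the 5 groups, S100a8 and S100a9 ran from inflamed CCR1 through resting CCR1/2+ve, inflamed CCR1/2+ve and resting CCR2+ve to inflamed CCR2+ve, and of these steps the last had libraries that overlapped. For S100a6 and S100a10 the libraries of neighbouring groups overlapped at each step but the last, down to inflamed CCR1. For S100a11 they overlapped at every step. S100a1 was separate at its first step, from inflamed CCR1 to inflamed CCR1/2+ve, and at its last, from inflamed CCR2+ve to resting CCR2+ve.

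S100a16 had 0 reads in each of the 19 libraries, which allows a level of up to 3 reads, or 0.0984 to 0.135 CPM by library. Of 7 further S100 genes, S100a3, S100a5, S100a7a, S100a14, S100b, S100g and S100z, none had more than 11 reads in any library, and 4 were tested. None of the 4 passed in 5 of the 6 comparisons, and S100a7a passed against inflamed CCR1/2+ve cells, on 0.25 against 0.03 CPM.

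The genes that work with the S100 proteins were counted from fixed lists. For these counts, 21.9% of all genes tested rose and 25.9% fell with inflammation in CCR2+ve cells. In CCR1/2+ve cells 20.6% rose and 25.4% fell. Between the resting populations 8.44% were higher and 8.44% lower, and between the inflamed ones 0.188% were called in either direction. Of 7 tested genes for receptors and surface partners of S100A8 and S100A9, 1 rose and 4 fell with inflammation in CCR2+ve cells (median log2 fold change -0.73, against -0.10 over all genes tested), and 1 rose and 4 fell in CCR1/2+ve cells (median -1.62, against -0.25). The one that rose in each was Tlr4, the receptor for released S100A8 and S100A9, from 39.8 ± 5.78 to 129 ± 18.9 CPM (SD, n = 4 and 4) in CCR2+ve cells and from 37.1 ± 6.98 to 148 ± 17.4 CPM (SD, n = 4 and 3) in CCR1/2+ve cells. Bsg, the gene of the S100A9 receptor basigin, fell in both, from 352 ± 24.9 to 63.3 ± 14.2 CPM in CCR2+ve cells and from 339 ± 30.5 to 47.1 ± 18.3 CPM in CCR1/2+ve cells. In the resting populations 0 of these 7 genes were higher and 2 lower in CCR1/2+ve cells, Alcam and the fatty acid receptor gene Cd36 (log2 fold change -1.57, edgeR adjusted p = 0.00159). Between the inflamed populations 1 was lower in CCR1/2+ve cells, Nptn (log2 fold change -0.99, edgeR adjusted p = 0.0365).

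Of a list of 7 transcription factors known to act at S100a8 and S100a9, those tested were lower in inflamed cells. Cebpe, also on that list, was not among the counted genes and could not be tested. Of 6 tested, 6 fell in CCR2+ve cells (median log2 fold change -2.71) and 6 fell in CCR1/2+ve cells (median -2.08). Cebpd was at 183 ± 9.08 CPM in resting and 4.20 ± 1.17 CPM in inflamed CCR2+ve cells, and at 149 ± 14.2 and 3.16 ± 0.543 CPM in CCR1/2+ve cells. Spi1, which encodes PU.1, was at 735 ± 74.9 and 38.1 ± 1.64 CPM in CCR2+ve cells and at 564 ± 84.9 and 33.9 ± 3.40 CPM in CCR1/2+ve cells, and Cebpa and Cebpb had log2 fold changes between -3.17 and -1.98. In the resting populations 5 of the 6 were lower in CCR1/2+ve cells, where S100a8 and S100a9 were higher (median log2 fold change -0.48, against 0.03 over all genes). Of these, Cebpb had the largest difference, at 22.4 ± 4.72 CPM against 59.3 ± 17.8 CPM, the others were Cebpa, Stat3, Hif1a and Spi1, and Cebpd did not pass the test (edgeR adjusted p = 0.0658). Between the inflamed populations 0 of 6 passed, with 1 at an unadjusted p under 0.05.

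Of 6 genes of the NADPH oxidase, the superoxide-producing complex to which S100A8 and S100A9 bind, 5 rose and 0 fell with inflammation in CCR1/2+ve cells (median log2 fold change 0.71), and 4 rose and 2 fell in CCR2+ve cells (median 0.43). Cybb, its membrane subunit, was among the 5, at 1886 ± 273 CPM in resting and 2976 ± 272 CPM in inflamed CCR1/2+ve cells, and fell in CCR2+ve cells from 3199 ± 573 to 2399.5 ± 243 CPM. In the resting populations Cybb was lower in CCR1/2+ve cells (log2 fold change -0.69, SE 0.13, edgeR adjusted p = 0.00274). Of 8 intracellular partners tested, 3 rose and 4 fell with inflammation in CCR2+ve cells and 4 rose and 4 fell in CCR1/2+ve cells (medians -0.15 and 0.05). Among them Myh9, the heavy chain of the myosin that S100A4 binds, rose from 79.7 ± 3.30 to 628 ± 98.5 CPM in CCR2+ve cells, Anxa1 fell from 994 ± 74.8 to 421 ± 109.6 CPM, and Cacybp, the partner of S100A6, from 155 ± 16.3 to 47.1 ± 5.87 CPM. Anxa2, the partner of S100A10, rose in CCR1/2+ve cells from 1566 ± 276 to 3923 ± 304 CPM. In the resting populations 2 of the 8 were higher and 1 lower, none by 2-fold.

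Of 3 genes tested of the S100A13 release complex, 0 rose or fell in CCR2+ve cells, and 1, Casp1, rose in CCR1/2+ve cells (log2 fold change 0.41, edgeR adjusted p = 0.00769). Of 9 other EF-hand genes tested, 3 rose and 3 fell in CCR2+ve cells and 3 rose and 2 fell in CCR1/2+ve cells (medians 0.02 and 0.08). In the resting populations 3 were higher and 3 lower, with Gca, which encodes grancalcin, higher (log2 fold change 1.11, edgeR adjusted p = 0.000115) and Efhd2 and Capns1 lower. Of 8 other metal-withholding and granule genes, 4 rose and 2 fell in CCR2+ve cells and 6 rose and 1 fell in CCR1/2+ve cells (medians 0.41 and 0.78). In the resting populations 2 were higher, Lcn2 and Camp, and 2 lower, Cybb and Slc11a1, in CCR1/2+ve cells (median -0.15). Lcn2, whose product binds bacterial siderophores, was higher in resting CCR1/2+ve cells, at 94.9 ± 33.8 CPM against 21.3 ± 7.94 CPM in resting CCR2+ve cells. Ngp and Camp were higher in inflamed CCR1/2+ve than in inflamed CCR2+ve cells, at 328 ± 34.95 against 134 ± 24.9 CPM and at 49.7 ± 8.72 against 18.3 ± 6.06 CPM, 2 of the 8 genes of this list.

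In the libraries labelled inflamed CCR1, against inflamed CCR2+ve cells, 5 granule genes were higher and 2 lower, led by Ngp at 86036 ± 12721 CPM, Camp at 19966 ± 3289.8 CPM and Ltf at 8523 ± 2237 CPM. Of the intracellular partners 3 were higher and 3 lower. Anxa2 was lower together with S100a10, at 556 ± 52.6 against 3821 ± 161 CPM, while Anxa1 was higher, at 2444 ± 309 against 421 ± 109.6 CPM. Ahnak, whose product binds the complex of S100A10 and annexin A2, was lower, at 7.43 ± 3.19 against 659.9 ± 84.9 CPM. Of the receptors 3 were higher and 3 lower, of the transcription factors 2 and 3, of the NADPH oxidase genes 3 and 1, of the release complex 0 and 1 and of the other EF-hand genes 5 and 3. Over all genes tested, 22.7% were higher and 25.4% lower in this comparison.

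As a description, Pearson's r of log2 CPM was computed over the 19 libraries, which share the group differences, between each member and 7685 genes with a mean of at least 10 CPM. S100a8 and S100a9 were at r = 0.98 with each other, and the genes most like them were Tipin, Mgst2 and 1810037I17Rik for S100a8 and Spc25, Prss57 and Elane for S100a9 (r from 0.97 to 0.98). S100a6 and S100a10 were at r = 0.99 with each other, with Selplg, Galnt9 and Stn1 most like S100a6 and Lgals1, Msr1 and Prdx4 most like S100a10. For S100a1 these were Tspan32, Mbnl3 and Acap1 (r = 0.98), for S100a13 Acta2, Ndufa13 and Mad2l2 (r from 0.93 to 0.95) and for S100a11 Rpl18, Dynll1 and Polr2l (r from 0.84 to 0.88). Over the 8 resting libraries alone the genes most like S100a8 were Exosc8, Gas2l3 and Kntc1, and those most like S100a9 were Cenpf, Cntln and Ube2t, with r of 0.99 or more. Over the 11 inflamed libraries they were Anxa1, Wfdc21 and 1810037I17Rik for S100a8 and Olfml2b, Clec5a and Cldn15 for S100a9.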

How the data were processed

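Bone marrow cells sorted as monocytes were profiled by bulk RNA-seq in 19 libraries of 5 groups. Per the labels and the study's methods, libraries were made with a low-input kit, and the authors assessed reads with fastp. They aligned the reads with STAR 2.7.10a to GRCm38 with Ensembl annotation and deposited raw read counts per gene. This kit does not mark strand. The strand setting of the counting is not given in the sources used here. A table column that matched no sample, 1 in number, was not used. Libraries of a group differed by more than sampling noise (chi-square per degree of freedom at least 10.2), and nothing says that replicates came from separate animals, so p-values measure only the spread between these samples.

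Of 50854 genes, 23256 had no read, and the 18652 that averaged 1 read or more per library were tested with edgeR 4.0.16 (R 4.3.3, TMM scaling, robust quasi-likelihood test) within the groups compared, and p-values were adjusted by Benjamini-Hochberg over all of them. Standard errors are the fold change over the square root of F. The second cutoff was an absolute log2 fold change of 1. Exact permutation tests used log2 CPM with a prior count of 2. The floor is 3 reads per library and covers counting error only. On simulated counts edgeR found most changes of 2-fold or more, and the share of false calls, of DESeq2 too, was above the nominal rate. Alternatives were DESeq2 1.42.0, other scalings, filters and fits, corrections for length and GC, a replicate block and leaving out each library.

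The 9 members, the 8 partner lists and the 10 marker lists were chosen with earlier results of these data known. Named were all members and, from each partner list, at most 4 genes with the smallest p past both cutoffs. Genes of the lists named below the 2-fold cutoff, and the marker genes named singly, were chosen after their values were seen. Same-numbered libraries correlated in their deviations from group means in the resting comparison (r from 0.31 to 0.61) and between inflamed CCR1 and inflamed CCR2+ve (r from 0.13 to 0.25) over 7685 genes, so the numbers were taken to pair these libraries. Per-kb levels and positions used GENCODE's gene models, and promoters came from RefSeq, both on GRCm38. One result for a gene of the partner lists is not reported here.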

Additional observations from a re-analysis of the deposited data

Results flagged for a closer look

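Of 32 sets of 4 libraries, 1 for each tested gene and group of 4, 2 had a library far from the other 3 by Dixon's test, and chance gives about 1 in 20. S100a8 in resting CCR2+ve replicate 2 was at 242 CPM, against 118 to 139 CPM in the other 3, and that library also had the highest early granule sum of its group. In the resting CCR1/2+ve group the library with the most S100a8, replicate 4, had the lowest early granule sum. S100a4 in resting CCR1/2+ve replicate 2 was at 4.40 CPM, against 6.01 to 6.29 CPM in the other 3.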

How the results depend on the processing

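The tally covers 56 results, the log2 fold changes of the tested members in the comparisons and the interaction, with 1040 alternative values. Of these values 984 kept their side of the threshold, 32 came past it, 24 no longer passed it and 0 called values turned. Within the 1040, 44 values that did not pass the threshold changed sign. The differences of S100a8 and S100a9 passed under every alternative in the resting comparison and in inflamed against resting CCR1/2+ve cells, with log2 fold changes without single libraries of 3.46 to 3.88 and 3.96 to 4.23, and of -2.34 to -2.06 and -1.82 to -1.40. In the counts below the cause of a change was not tested, except that the fold cutoff is stricter by construction.

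In the resting comparison 4 higher members became 5 with the replicate block and 2 with the 2-fold cutoff. Of lower members, 0 became 1 with the replicate block, 1 with length correction, 2 with the block and length correction and 1 with the block and GC correction. In inflamed against resting CCR2+ve cells 1 higher became 2 with length correction, 3 with that and the replicate block, 0 with GC correction, with GC correction and the block, or with the fold cutoff, and 0 to 1 without single libraries. There 0 lower became 1 with the replicate block (S100a9 at -0.49), GC correction, or both. In inflamed against resting CCR1/2+ve cells 0 higher became 1 with all 19 libraries in one fit, 3 with length correction, 1 with that and the block, and 0 to 1 without single libraries. Between the inflamed populations 0 higher became 2 with DESeq2 or all 19 libraries in one fit and 1 with filterByExpr, length correction or the replicate block (S100a9 at 3.09), the block with length correction and the block with GC correction. The 5 lower members of inflamed CCR1 against inflamed CCR1/2+ve became 3 with the fold cutoff, and the 0 of the interaction became 1 with DESeq2 and 1 with the block and length correction. The replicate block changed 5 of 48 calls of single members, and changed none between inflamed CCR1 and inflamed CCR2+ve, where the numbers pair the libraries. Outside the 2 paired comparisons the libraries share only a number. S100a10 in the resting comparison did not pass with all 19 libraries in one fit (0.41).

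Over all genes, 23 higher and 12 lower calls between the inflamed populations became 14 to 37 and 2 to 28 without single libraries, 138 and 120 with DESeq2, 141 and 81 with the replicate block, 217 and 108 with the block and length correction, 139 and 64 with the block and GC correction, 112 and 36 with all 19 libraries in one fit, and 83 and 37 with no filter, and 23 higher became 43 with length correction. The 45 higher and 29 lower of the interaction became 0 to 170 and 0 to 83 without single libraries and 379 and 166 with DESeq2, and under the other settings higher calls reached 169 and lower calls 66. The 1575 higher and 1574 lower of the resting comparison became 2315 and 2470.0 with the replicate block, and 1006 higher with all 19 libraries in one fit. Between the inflamed populations the share of higher calls moved from 65.7% to 53.5% with DESeq2, and in the interaction from 60.8% to 75.2% with RLE scaling. Depth limits S100a4 in the inflamed CCR1 libraries, S100a16 and the other S100 genes, which lie near the floor of 3 reads.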
